A study of Homo sapiens with 6 samples.

Results

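The 8 genes described here encode 4 ligands (TGFA, AREG, EREG and HBEGF), 3 receptors (EGFR, ERBB2 and ERBB3) and 1 feedback inhibitor (ERRFI1) of the ERBB family of receptor tyrosine kinases. They were taken by symbol from the 57905 genes of a count matrix, each matched 1 row, and all 8 passed the low-count filter with the 16565 genes tested. RNA was measured in HCT116 cells, a human colorectal carcinoma line with wild-type p53, in 3 groups of 2 biological replicates. The cells received the vehicle DMSO (Nut 0h) or 10 µM Nutlin-3a, which blocks the binding of MDM2 to p53, for 1 h (Nut 1h) or 10 h (Nut 10h). No gene was altered in any group, and a vehicle control taken at 1 or 10 h was not analysed here. The labels call the replicates biological but do not describe separate cultures, so the p-values measure the spread between these samples. In bulk RNA, fewer cells of a type and less RNA per cell cannot be told apart, and the amounts of ligand and receptor protein were not measured.

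ERBB ligands are made as membrane-anchored precursors that proteases of the ADAM family release from the cell surface. Binding of a ligand makes ERBB receptors pair, and the pairs signal through RAS-ERK, PI3K-AKT, STAT and phospholipase C branches. TGFA and AREG bind EGFR, whereas EREG and HBEGF bind both EGFR and ERBB4. ERBB2 has no known ligand and serves as the preferred partner of the other receptors, and ERBB3 has a weak kinase and binds neuregulins. ERRFI1 (also known as MIG6) is induced by growth factor signalling and inhibits the kinase domain of EGFR. In intestinal epithelium the ligands drive growth and repair.

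At Nut 10h the RNA of all 4 ligands was upregulated, by 2.85-fold for AREG, 2.07-fold for TGFA, 1.62-fold for HBEGF and 1.35-fold for EREG, and none of the 3 receptors or ERRFI1 was called. The EREG call was lost without Nut 0h replicate 1 (adjusted p = 0.0752, edgeR) or Nut 10h replicate 2 (adjusted p = 0.0781), which leaves 3 of the 4. At Nut 1h the pattern differed, since EREG (1.80-fold) and ERRFI1 (1.77-fold) were upregulated, AREG and ERBB2 were downregulated to 0.661 and 0.538 of the vehicle level, HBEGF rose by 1.21-fold, and TGFA, EGFR and ERBB3 were not called. When the GC content of the transcripts was offset in each library, the EREG change at Nut 1h was -0.03 on the log2 scale and not called (adjusted p = 0.757, edgeR), and TGFA was called lower, at -0.51 (adjusted p = 1.95e-05). The changes in ERRFI1 and ERBB2 became smaller (0.82 to 0.32 and -0.89 to -0.31) and that in AREG larger (-0.60 to -0.98). The HBEGF call at Nut 1h was lost when any 1 library was left out, with DESeq2, with RLE normalization, without a low-count filter and with 2 groups only. Without the offset 3 of the 8 genes were called higher and 2 lower at Nut 1h, beside 34.5% and 32.3% of all tested genes. With the offset these were 2 higher and 3 lower, beside 19.1% and 27.1%, and the share of higher calls among all called genes fell from 51.7% to 41.3%. At Nut 10h 4 were called higher and 0 lower, beside 14.1% and 14.9% of all tested genes (edgeR's quasi-likelihood test, adjusted p of at most 0.05 with Benjamini-Hochberg adjustment over all tested genes). The number called lower was also 0 at an unadjusted p under 0.05 and with DESeq2. Both comparisons share the Nut 0h libraries. The median log2 fold change of the 8 genes at Nut 10h was 0.25, against 0.00017 for all tested genes.

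The 250 bases before an annotated start site are shown for the 4 ligand genes, because these were the genes of the family that rose at Nut 10h. They come from RefSeq on GRCh38.p14 and are printed 5′ to 3′ on the strand of the gene, from chr2:70553827-70554076 (minus strand) for TGFA, chr4:74444886-74445135 (plus strand) for AREG, chr4:74364895-74365144 (plus strand) for EREG and chr5:140346604-140346853 (minus strand) for HBEGF. Capitals mark the motif TGACGTCA, the palindromic cyclic AMP response element, which was chosen after the sequences had been seen. The table holds 2 start sites for TGFA, and the first listed is shown. The stretch before the other, chr2:70553447-70553696, has a GC content of 64.0% and does not hold the motif either.
TGFA: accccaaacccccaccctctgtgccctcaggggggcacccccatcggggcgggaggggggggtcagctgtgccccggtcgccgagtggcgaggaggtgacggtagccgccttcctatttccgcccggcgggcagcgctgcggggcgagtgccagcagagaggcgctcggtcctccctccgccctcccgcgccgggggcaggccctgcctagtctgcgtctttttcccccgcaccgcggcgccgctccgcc
AREG: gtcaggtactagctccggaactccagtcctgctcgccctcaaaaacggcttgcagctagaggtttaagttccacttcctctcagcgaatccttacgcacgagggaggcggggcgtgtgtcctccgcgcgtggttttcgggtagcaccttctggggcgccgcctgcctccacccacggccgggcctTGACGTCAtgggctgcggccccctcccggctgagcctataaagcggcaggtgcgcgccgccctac
EREG: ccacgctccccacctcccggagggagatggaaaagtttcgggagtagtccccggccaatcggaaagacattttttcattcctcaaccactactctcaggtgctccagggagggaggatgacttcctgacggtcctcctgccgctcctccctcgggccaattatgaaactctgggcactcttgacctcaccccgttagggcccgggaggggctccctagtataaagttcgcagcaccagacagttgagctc
HBEGF: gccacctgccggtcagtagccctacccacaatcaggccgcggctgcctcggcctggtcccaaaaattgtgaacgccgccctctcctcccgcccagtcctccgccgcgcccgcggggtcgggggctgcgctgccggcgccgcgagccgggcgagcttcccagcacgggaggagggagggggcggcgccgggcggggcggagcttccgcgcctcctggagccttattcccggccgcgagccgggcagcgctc
The motif stood only in the AREG sequence among these 4, beginning 65 bases before the start, and 1.85% of the 35116 promoter sequences of the table hold it. The GC content of the 4 stretches shown was 75.6% for TGFA, 65.2% for AREG, 58.0% for EREG and 76.4% for HBEGF. Windows reaching a further 50 bases past the start were present for 7 of the 8 genes, ERBB3 being the exception, and were searched on both strands for the p53 half-site, a palindromic consensus of 10 bases. No window of these 7 genes held it, while 6.63% of all promoters in the table did, which says only that these letters are not in these windows.

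Before the single genes are described, the properties of the libraries that bear on them are given. Counts assigned to genes summed to between 26068076 (a Nut 1h replicate) and 35473485 per library, and mitochondrial genes took 4.99% and 6.18% of them with vehicle, 8.44% and 8.15% after 1 h, and 6.45% and 7.06% after 10 h. Across 16137 tested genes with a known GC content, the log2 fold change at Nut 1h fell with the GC content of the longest transcript (Pearson r = -0.69 across genes of the same libraries, which are not independent replicates), and hardly at all at Nut 10h (r = -0.026). Values at Nut 1h are therefore also given from a fit in which an offset follows the GC content smoothly in each library. The response to Nutlin-3a was present at Nut 10h, with log2 fold changes of 3.84 for CDKN1A and 3.75 for MDM2, both p53 targets, while at Nut 1h the values were 0.05 (not called, adjusted p = 0.704, edgeR) and 2.19. With the GC-content offset CDKN1A was called higher at Nut 1h, at 0.67 (adjusted p = 2.56e-06), and MDM2 was at 1.48. Of 7 markers of colorectal epithelium, 6 were above 1 CPM (counts scaled to a common library total) in every library and VIL1, which marks the brush border, lay at or below 0.282 CPM. The markers summed to 4980 to 5640 CPM with vehicle, 3520 to 3710 after 1 h and 6340 to 7310 after 10 h, and their part in the results was not tested. Of the fibroblast markers DCN and LUM were at 0 throughout and COL1A1 lay between 23.8 and 42.2 CPM, while the summed leukocyte and endothelial markers stayed at or below 0.23 and 0.658 CPM.

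**Figure D1:**
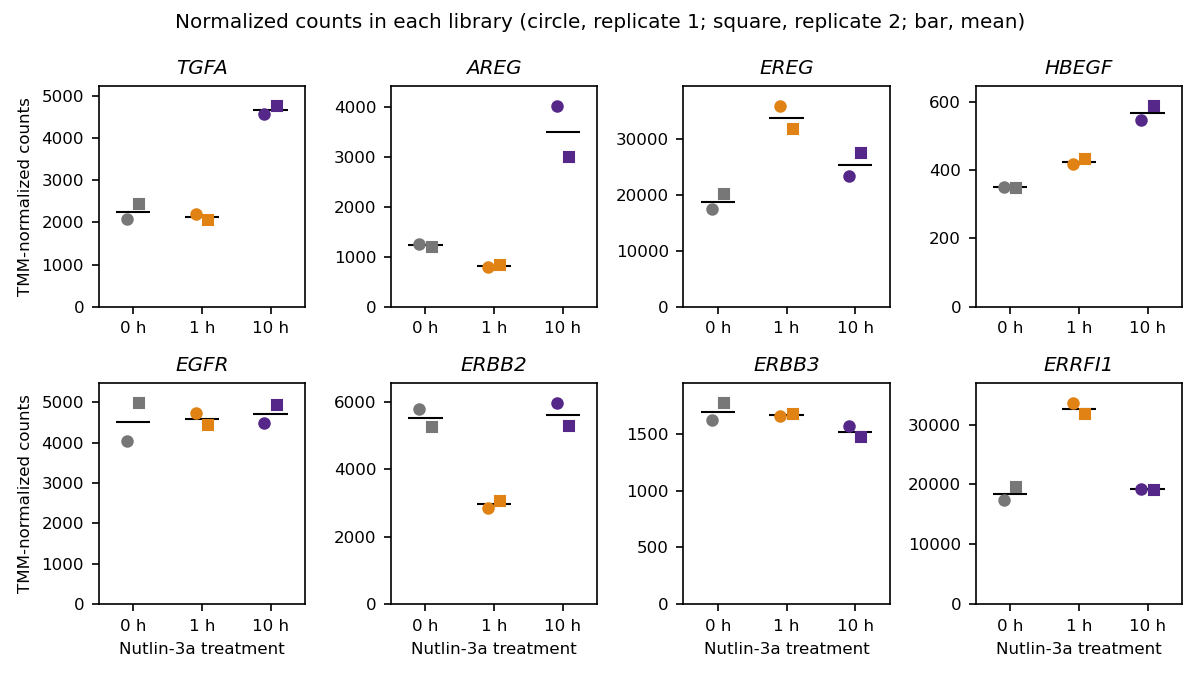
Normalized counts (y axis, TMM-normalized, starting at 0) of the 8 genes in each of the 6 libraries, by hours of Nutlin-3a (x axis), where circles are replicate 1, squares replicate 2 and bars the mean of 2. TGFA, AREG and HBEGF were highest in both Nut 10h libraries, EREG and ERRFI1 in both Nut 1h libraries, and ERBB2 was lowest in both Nut 1h libraries.

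TGFA (GRCh37 chromosome 2, 70674416 to 70781325, minus strand) encodes transforming growth factor alpha, an EGFR ligand. It had 2079 and 2433 normalized counts in the Nut 0h libraries, 2190 and 2065 after 1 h, and 4586 and 4763 after 10 h. Both Nut 10h libraries lay above all others, and the Nut 0h and Nut 1h libraries overlapped. From a mean of 2256 ± 251 (SD, n = 2) at Nut 0h it rose to 4674 ± 125 at Nut 10h, or by 1.05 on the log2 scale (standard error 0.10, adjusted p = 2.07e-06 in edgeR's quasi-likelihood test), and the value with each library left out in turn ranged from 0.94 to 1.17. At Nut 1h its log2 fold change was -0.08 (95% interval -0.30 to 0.13, adjusted p = 0.472, edgeR). With the GC-content offset TGFA, whose transcript has a GC content of 44.5%, was called lower at Nut 1h, at -0.51 (adjusted p = 1.95e-05), whereas the Nut 10h value stayed at 1.04. TGFA overlaps the long non-coding RNA TGFA-IT1 and a microRNA gene on the same strand in the annotation.

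AREG (chromosome 4, 75310853 to 75320722, plus strand) encodes amphiregulin, a lower-affinity EGFR ligand. It had 1267 and 1199 normalized counts with vehicle, 798 and 832 after 1 h, and 4021 and 3002 after 10 h, so that the 3 groups did not overlap and the Nut 10h replicates lay furthest apart. The log2 fold change of -0.60 at Nut 1h (standard error 0.13, adjusted p = 0.000881) was a fall, which was -0.98 with the GC-content offset, and that of 1.51 at Nut 10h a rise (standard error 0.12, adjusted p = 5.02e-07, edgeR for both). With each library left out in turn the Nut 10h value ranged from 1.29 to 1.72. An annotated copy, AREGB, shares 99.919% of the 1234 bases of the longest AREG transcript. Its own counts were 1 and 1 with vehicle, 17 and 7 after 1 h, and 6 and 7 after 10 h, and reads that fit both copies cannot be assigned, so the level of AREG is uncertain. When the counts of both copies were added, an alternative chosen after seeing the data, the log2 fold changes were -0.58 and 1.51.

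EREG (chromosome 4, 75230862 to 75254466, plus strand), which encodes epiregulin, had the highest RPKM (counts per length and library total) of the ligand genes in every library as counted, with the level of AREG uncertain. The normalized counts of EREG were 17550 and 20094 with vehicle, 35893 and 31750 after 1 h, and 23318 and 27539 after 10 h. The groups did not overlap and were highest at Nut 1h. At Nut 1h the change was 0.85 on the log2 scale (standard error 0.11, adjusted p = 1.53e-05, edgeR), but the EREG transcript has the lowest GC content of the 8, at 36.1%, and with the GC-content offset the value was -0.03 (adjusted p = 0.757). The rise at Nut 10h was smaller, at 0.43 in edgeR (standard error 0.11, adjusted p = 0.00962), and was 0.43 with the offset. It was no longer called without Nut 0h replicate 1 (0.34, adjusted p = 0.0752) or without Nut 10h replicate 2 (0.32, adjusted p = 0.0781).

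HBEGF (chromosome 5, 139712428 to 139726188, minus strand) encodes heparin-binding EGF-like growth factor and had the lowest counts of the 8 genes. It had 352 and 349 normalized counts with vehicle, 419 and 432 after 1 h, and 548 and 588 after 10 h, with no overlap between the groups. By edgeR the rise at Nut 10h was 0.70 on the log2 scale (standard error 0.11, adjusted p = 0.000259), with a range of 0.66 to 0.75 as each library was left out. At Nut 1h it was 0.28 in edgeR (standard error 0.11, adjusted p = 0.0399), or 0.31 with the GC-content offset. That call was lost when any 1 of the 6 libraries was left out, with log2 fold changes of 0.25 to 0.30 and adjusted p-values of 0.0541 to 0.165, with DESeq2 (0.25, adjusted p = 0.148), with RLE normalization (0.25, adjusted p = 0.0585), without a low-count filter (0.24, adjusted p = 0.186) and with 2 groups only (0.25, adjusted p = 0.0572).

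Among the receptors, EGFR (chromosome 7, 55086710 to 55279321, plus strand) had 4052 and 4976 normalized counts with vehicle, 4743 and 4436 after 1 h, and 4488 and 4936 after 10 h. All 3 groups overlapped. The log2 fold changes of 0.02 at Nut 1h (95% interval -0.21 to 0.26, adjusted p = 0.853) and 0.06 at Nut 10h (95% interval -0.17 to 0.29, adjusted p = 0.709, edgeR for both) were not called. At Nut 1h the value was -0.17 with the GC-content offset (adjusted p = 0.0971), and with a length offset it was called lower, at -0.28 (adjusted p = 0.0134). The antisense gene EGFR-AS1 overlaps EGFR, and whether reads were counted by strand is not given in the sources used here.

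ERBB2 (chromosome 17, 37844167 to 37886679, plus strand), also known as HER2, had 5768 and 5241 normalized counts with vehicle, 2860 and 3067 after 1 h, and 5947 and 5264 after 10 h. Both Nut 1h libraries lay below the other 4, and Nut 0h and Nut 10h overlapped. From 5504 ± 373 (SD, n = 2) it fell to 2963 ± 147 at Nut 1h, with -0.89 as the log2 fold change in edgeR (standard error 0.10, adjusted p = 3.31e-06). The ERBB2 transcript has the highest GC content of the 8, at 57.5%, and with the GC-content offset the fall was smaller, at -0.31 (adjusted p = 0.000861). At Nut 10h the log2 fold change was 0.03 (95% interval -0.18 to 0.24, adjusted p = 0.870, edgeR). ERBB2 overlaps MIEN1 and PGAP3 on the other strand and MIR4728 on its own, so part of its counts is uncertain.

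ERBB3 (chromosome 12, 56470583 to 56497289, plus strand) had 1621 and 1771 normalized counts with vehicle, 1659 and 1675 after 1 h, and 1572 and 1473 after 10 h. The Nut 1h libraries lay within the range of Nut 0h, and both Nut 10h libraries lay below it. The log2 fold changes were -0.02 at Nut 1h (95% interval -0.23 to 0.18, adjusted p = 0.831) and -0.16 at Nut 10h (95% interval -0.36 to 0.05, adjusted p = 0.243, edgeR for both). At Nut 1h the GC-content offset gave 0.17 (adjusted p = 0.066), and the length offset gave -0.26, which was called (adjusted p = 0.023). An unnamed protein-coding gene overlaps ERBB3 on the same strand.

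The inhibitor ERRFI1 (chromosome 1, 8064464 to 8086369, minus strand) had 17373 and 19513 normalized counts with vehicle, 33538 and 31703 after 1 h, and 19213 and 19103 after 10 h. Both Nut 1h libraries were high, and the Nut 10h libraries lay within the range of Nut 0h. In edgeR the rise at Nut 1h was 0.82 on the log2 scale (standard error 0.10, adjusted p = 4.73e-06), and 0.32 with the GC-content offset (adjusted p = 0.00148), the transcript having a GC content of 43.5%. At Nut 10h it was 0.06 (95% interval -0.15 to 0.26, adjusted p = 0.708, edgeR). A long non-coding RNA gene overlaps ERRFI1 on the other strand.

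**Figure D2:**
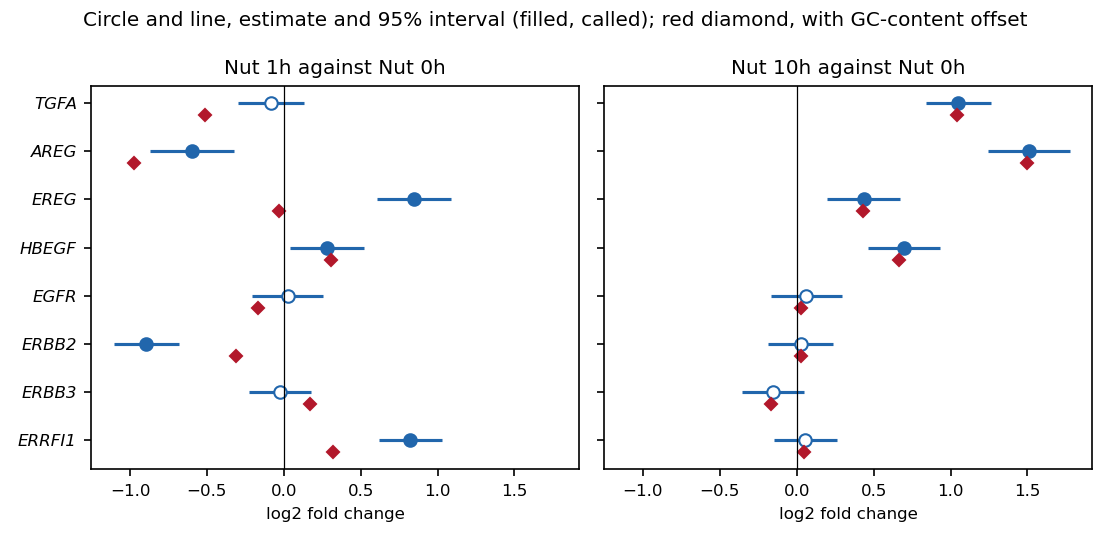
Log2 fold changes (x axis) of the 8 genes (y axis) at Nut 1h and Nut 10h against Nut 0h, with 95% intervals, filled circles marking genes called at an adjusted p of at most 0.05 and red diamonds the values with the GC-content offset. The diamonds lie on or close to the circles at Nut 10h. At Nut 1h they lie farthest from them for EREG (0.85 against -0.03 with the offset) and ERBB2 (-0.89 against -0.31), and close to them for HBEGF (0.28 against 0.31).

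The difference between the treated groups was tested directly between Nut 10h and Nut 1h. In this comparison 4 of the 8 genes were called higher and 2 lower, beside 34.2% and 33.7% of all tested genes, or 6 and 2 under the GC-content offset, beside 32.3% and 25.9%. AREG was higher at Nut 10h by 2.11 on the log2 scale (adjusted p = 9.05e-09), TGFA by 1.14 (adjusted p = 2.72e-07), ERBB2 by 0.92 (adjusted p = 1.92e-06) and HBEGF by 0.42 (adjusted p = 0.00357, edgeR for all). ERRFI1 was lower, with -0.77 (adjusted p = 7.29e-06), and so was EREG, with -0.41 (adjusted p = 0.00477). Under the GC-content offset EREG turned to 0.46 (adjusted p = 3.01e-05), ERBB2 was 0.34 and ERRFI1 -0.27, while AREG and TGFA were 2.47 and 1.55. The EREG call was also lost without Nut 1h replicate 1 (-0.32, adjusted p = 0.0736) or Nut 10h replicate 1 (-0.27, adjusted p = 0.0876). EGFR (0.04, adjusted p = 0.771) and ERBB3 (-0.13, adjusted p = 0.235) were not called without an offset, and with the GC-content offset were called at 0.20 (adjusted p = 0.043) and -0.34 (adjusted p = 0.000728).

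To compare levels between genes, counts were scaled by the length of the exon union and by the total of each library (RPKM, which is CPM per kilobase). At Nut 0h ERRFI1 was at 131 RPKM, EREG at 98.1, AREG at 22.3, ERBB2 at 15.8, TGFA at 13.7, EGFR at 8.44, ERBB3 at 4.31 and HBEGF at 3.49 (means of 2 libraries). No neighbours in this order overlapped between replicates. The place of AREG here and at the later times is uncertain, since reads that fit both AREG and its copy AREGB cannot be assigned. With the length of the longest transcript in place of the exon union, AREG (29.7 RPKM) and ERBB2 (33.2 RPKM) changed places. At Nut 1h ERRFI1 (242 RPKM) and EREG (183 RPKM) were further above AREG (15.4 RPKM) and TGFA (13.4 RPKM), EGFR and ERBB2 overlapped at 8.92 and 8.88 RPKM, and ERBB3 and HBEGF overlapped at 4.41 and 4.40 RPKM. At Nut 10h ERRFI1 (138 RPKM) and EREG (134 RPKM) overlapped, followed by AREG at 64.3, TGFA at 28.7, ERBB2 at 16.4, EGFR at 8.92, HBEGF at 5.73 and ERBB3 at 3.92 RPKM.

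Within the summed RPKM of 11 ligand genes (the 4 described here with EGF, BTC, EPGN and NRG1 to NRG4), EREG made up 69.1% and 71.8% with vehicle, 84.3% and 82.7% after 1 h, and 53.02% and 61.2% after 10 h. AREG made up 17.4% and 14.9%, then 6.52% and 7.54%, and then 31.8% and 23.2%. TGFA held 9.51% and 10.1% with vehicle, 5.97% and 6.25% after 1 h, and 12.1% and 12.3% after 10 h, and HBEGF between 1.88% and 2.65% in all libraries. The RPKM of EREG per RPKM of AREG was 3.98 and 4.82 with vehicle, 12.9 and 11.0 after 1 h, and 1.67 and 2.64 after 10 h. The excess of EREG over AREG was thus larger after 1 h than with vehicle and smaller after 10 h. As counted, EREG still held the largest share after 10 h. The level of AREG is uncertain because of its copy AREGB, and so are these shares and ratios and the summed ligand level. The summed ligand level was 130 and 149 RPKM with vehicle, 234 and 205 after 1 h, and 228 and 242 after 10 h. Among the 4 receptor genes, ERBB2 held 58.7% and 52.3% of the summed RPKM with vehicle, 38.7% and 41.4% after 1 h, and 58.1% and 54.0% after 10 h. The sum of the receptors was 27.8 and 29.4 RPKM, then 22.5 and 21.9, and then 29.3 and 29.1. These sums and shares are descriptions without a test, and no GC-content offset enters them. EREG, which made up most of the ligand sum at Nut 1h, rose there by 0.85 on the log2 scale. With the offset that value was -0.03 (adjusted p = 0.757, edgeR), and sums and shares with the offset were not calculated.

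**Figure D3:**
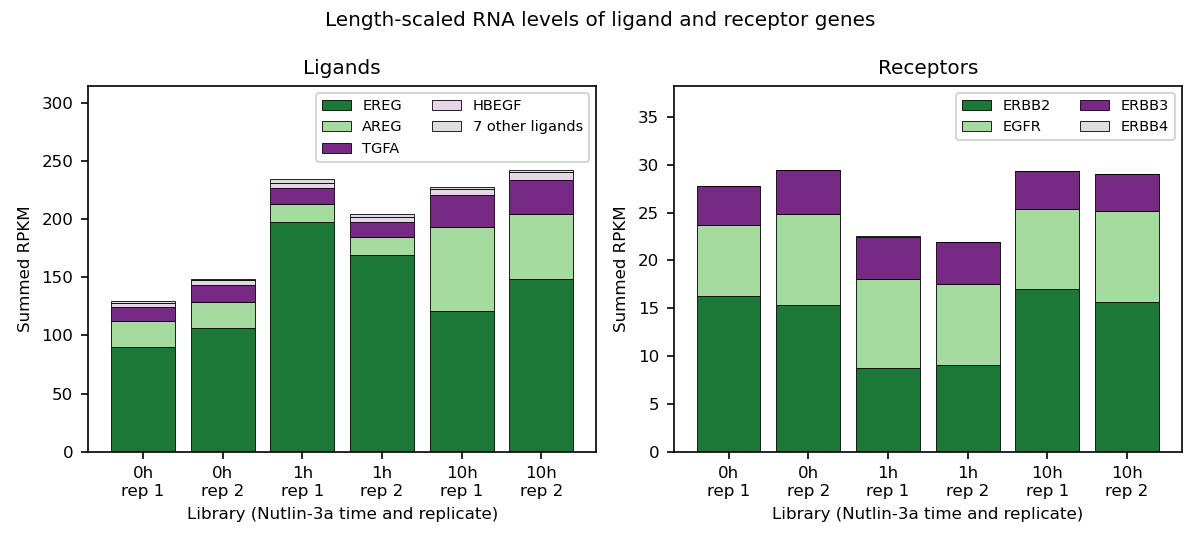
Stacked RPKM (y axis, starting at 0) of 11 ligand genes and 4 receptor genes in each library (x axis, hours of Nutlin-3a and replicate), where grey marks the 7 other ligands or ERBB4. The summed ligand level was 130 and 149 RPKM with vehicle and 228 and 242 at Nut 10h, with wider AREG and TGFA segments at Nut 10h, and both the AREG and the ERBB2 segment were narrower at Nut 1h.

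The remaining ligands and the remaining receptor of the family had few counts. ERBB4, a receptor for neuregulins, had 0 counts in both Nut 0h libraries and in 1 library each of Nut 1h and Nut 10h, and 1 and 3 counts in the others. NRG3 had 0 counts in 5 libraries and 4 in Nut 10h replicate 2, and EPGN had between 0 and 10. These 3 genes did not pass the filter, and with 0 counts a level of up to 3 counts per library, or 0.0846 to 0.115 CPM, remains possible (counting error only). Of the 5 tested, 3 were called higher and 1 lower at Nut 1h, beside 34.5% and 32.3% of all tested genes, or 1 and 1 with the GC-content offset (19.1% and 27.1% of all tested genes). NRG4, a ligand of ERBB4, had 39 and 37 counts with vehicle, 157 and 93 after 1 h, and 49 and 67 after 10 h. At Nut 1h it rose by 1.93 on the log2 scale (adjusted p = 8.37e-06), or 1.13 with the GC-content offset. It overlaps FBXO22. NRG2, a ligand of ERBB3 and ERBB4, fell from 89 and 55 counts to 16 and 13, or by a log2 value of -2.08 (adjusted p = 0.000153), or -1.16 with the offset.
BTC (betacellulin), with 85 and 57 counts with vehicle and 143 and 115 at Nut 1h, rose by 1.09 on the log2 scale (adjusted p = 0.000554), and EGF itself, with 14 and 21 counts and then 45 and 30, by 1.32 (adjusted p = 0.00381, edgeR for all). Neither was called with the GC-content offset (0.33 and 0.77, adjusted p = 0.225 and 0.0817). NRG1 was not called at Nut 1h (0.39, adjusted p = 0.205), and was at -0.24 with the offset. At Nut 10h 0 of the 5 genes were called by edgeR or by DESeq2, beside 14.1% (higher) and 14.9% (lower) of all tested genes in edgeR, and 1, NRG4, had an unadjusted p under 0.05 in edgeR (log2 fold change 0.60, adjusted p = 0.105). The NRG2 value at Nut 10h, -0.58 (adjusted p = 0.162), became -0.90 and was called without Nut 0h replicate 2 (adjusted p = 0.030).

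Genes that bear on the release and transport of the ligands were read from a list of 7, of which 6 were tested. TIMP3, an inhibitor of release, was too low. At Nut 10h 3 were upregulated and 0 downregulated, beside 14.1% and 14.9% of all tested genes (also 0 at an unadjusted p under 0.05 and with DESeq2). ADAM17, the protease that sheds all 4 of these ligands, had 1119 and 1231 normalized counts with vehicle and 1445 and 1511 at Nut 10h (a rise of 0.33 on the log2 scale, adjusted p = 0.0185). RHBDF2, which carries ADAM17 to the surface, had 2967 and 2615 normalized counts with vehicle and 4656 and 4164 at Nut 10h (0.66, adjusted p = 0.000167), and its paralogue RHBDF1 rose by 0.43 (adjusted p = 0.0165). The ADAM17 call was lost without Nut 0h replicate 1 (0.26, adjusted p = 0.160) or Nut 10h replicate 2 (0.31, adjusted p = 0.0531) and without a low-count filter (0.29, adjusted p = 0.0614), and the RHBDF1 call without Nut 0h replicate 1 (0.34, adjusted p = 0.0975) or Nut 10h replicate 1 (0.30, adjusted p = 0.0865). At Nut 1h RHBDF1 and RHBDF2 were downregulated, by -1.41 and -1.31 (-0.39 and -0.28 with the GC-content offset), and 3 genes were upregulated, beside 32.3% and 34.5% of all tested genes. Of these ADAM10 changed most (0.77, adjusted p = 1.29e-05). ADAM10 sheds EGF and BTC. ADAM17 had 1599 and 1584 normalized counts at Nut 1h, a rise of 0.44 on the log2 scale (adjusted p = 0.00109, edgeR). With the GC-content offset ADAM17 was called lower at Nut 1h, at -0.32 (adjusted p = 0.00158, edgeR). With the offset ADAM10 was at -0.04, and 0 of the 6 genes were upregulated and 3 downregulated, beside 19.1% and 27.1% of all tested genes. The median of the 6 log2 fold changes was 0.44 at Nut 1h, then 0.19 at Nut 10h, against 0.05 and 0.00017 for all tested genes. With the offset the median at Nut 1h turned to -0.16, against -0.04 for all tested genes.

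Genes that act on the degradation, sorting or dephosphorylation of receptors, not all in the same direction, were read from a list of 16, all tested. At Nut 1h 7 were upregulated and 3 downregulated, beside 34.5% and 32.3% of all tested genes, and with the GC-content offset 4 and 10, beside 19.1% and 27.1%. SOCS4, which promotes degradation of EGFR, rose most, with 761 and 863 normalized counts with vehicle and 2512 and 2211 at Nut 1h (a log2 change of 1.54, adjusted p = 1.8e-07, or 0.63 with the offset), and CBLC, a ubiquitin ligase of the CBL family, fell most (-1.24, or -0.08 and not called with the offset). At Nut 10h 1 was upregulated and 1 downregulated, beside 14.1% and 14.9% of all tested genes, and with the offset 5 and 1, beside 18.9% and 20.5%. SOCS4 was at 0.78 (adjusted p = 0.000147), and HGS, which sorts ubiquitinated receptors on endosomes, at -0.34 (adjusted p = 0.0341). The HGS call was lost without Nut 0h replicate 1 (-0.24, adjusted p = 0.204) or Nut 10h replicate 2 (-0.20, adjusted p = 0.296), or without Nut 1h replicate 1 or 2, at an unchanged -0.34 (adjusted p = 0.0566 and 0.0573). It was also lost with upper-quartile normalization (-0.30) and with 2 groups only (adjusted p = 0.0672). The median log2 fold change of the 16 was 0.15 at Nut 1h (-0.23 with the offset), then 0.14 at Nut 10h, against 0.05 (-0.04 with the offset) and 0.00017 for all tested genes.

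Of 16 adaptors and members of the RAS-ERK cascade, all tested, 6 rose and 6 fell at Nut 1h, close to the 34.5% and 32.3% of all tested genes, and with the GC-content offset these were 3 and 8, beside 19.1% and 27.1%. PTPN11, the phosphatase SHP2 that links receptors to RAS, rose most (log2 fold change 1.12, adjusted p = 4.61e-07), and MAP2K2, the kinase MEK2, fell most (-1.51, adjusted p = 6.23e-07), with offset values of 0.51 and -0.73. At Nut 10h 1 rose and 1 fell, beside 14.1% and 14.9% of all tested genes, and with the offset 2 and 5, beside 18.9% and 20.5%. The adaptor SHC1, which binds activated ERBB receptors, had 8163 and 7803 normalized counts with vehicle, 4495 and 4902 after 1 h, and 12589 and 11689 after 10 h (0.60 at Nut 10h, adjusted p = 0.000227). MAPK3 (ERK1) was at -0.32 (adjusted p = 0.0451), a call lost without Nut 0h replicate 1 (-0.22, adjusted p = 0.265) or Nut 10h replicate 2 (-0.16, adjusted p = 0.367), or without Nut 1h replicate 1 or 2, at an unchanged -0.32 (adjusted p = 0.0815 and 0.082). It was also lost with RLE (adjusted p = 0.0514) and upper-quartile normalization (0.0733), with the length offset (0.0603) and with 2 groups only (0.0911). The median log2 fold change at Nut 1h was 0.05, as for all tested genes, and -0.20 with the offset (-0.04 for all tested genes). At Nut 10h it was -0.11.

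Of 16 genes of the PI3K, AKT, STAT and phospholipase C branches, 14 were tested. The symbol PIK3R2 matched more than 1 row, and the row used was too low to be tested, as was STAT5A. The level of PIK3R2 is therefore not known from it. At Nut 10h 4 were upregulated and 2 downregulated, beside 14.1% and 14.9% of all tested genes. STAT3, a transcription factor activated downstream of ERBB receptors among others, rose most, with 2749 and 2651 normalized counts with vehicle, 2758 and 2694 after 1 h, and 5830 and 6034 after 10 h (a log2 change of 1.14, adjusted p = 2.92e-07), and PLCG1 fell most (-0.56, adjusted p = 0.00055). At Nut 1h 4 rose and 5 fell, close to the shares of 34.5% and 32.3% over all tested genes, and with the GC-content offset 3 rose and 3 fell, beside 19.1% and 27.1%. The largest called rise and fall without the offset were those of PIK3R3, a regulatory subunit of PI3K, at 0.95 (adjusted p = 0.00815) and the catalytic subunit PIK3CD at -0.76 (adjusted p = 7e-05). Neither kept its call with the GC-content offset (0.61 and -0.19), and PIK3R3 was not called without Nut 1h replicate 1 (0.69, adjusted p = 0.115). The median log2 fold change of the 14 was -0.02 at Nut 1h (0.06 with the offset), then 0.11 at Nut 10h.

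The last list held 14 genes that are known to rise with ERK signalling, all tested. At Nut 10h 3 were upregulated and 2 downregulated, beside 14.1% and 14.9% of all tested genes. PHLDA1 had 16344 and 14929 normalized counts with vehicle and 23198 and 22033 at Nut 10h (a log2 change of 0.53, adjusted p = 0.000806). EGR1, an immediate early transcription factor, had 15453 and 10326 normalized counts with vehicle and 7671 and 6165 at Nut 10h (-0.90, adjusted p = 0.000711), and its value was -0.58 without Nut 0h replicate 1 (adjusted p = 0.0014). At Nut 1h 5 rose and 4 fell, close to the 34.5% and 32.3% of all tested genes, or 6 and 3 with the GC-content offset, beside 19.1% and 27.1%. DUSP6, a phosphatase of ERK, was at 0.71 (adjusted p = 9.57e-06, or 0.42 with the offset), and the transcription factor ETV4 at -0.97 (adjusted p = 2.74e-06, or -0.14 and not called with the offset). The median log2 fold change was 0.13 at Nut 1h (0.09 with the offset), then 0.02 at Nut 10h.

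**Figure D4:**
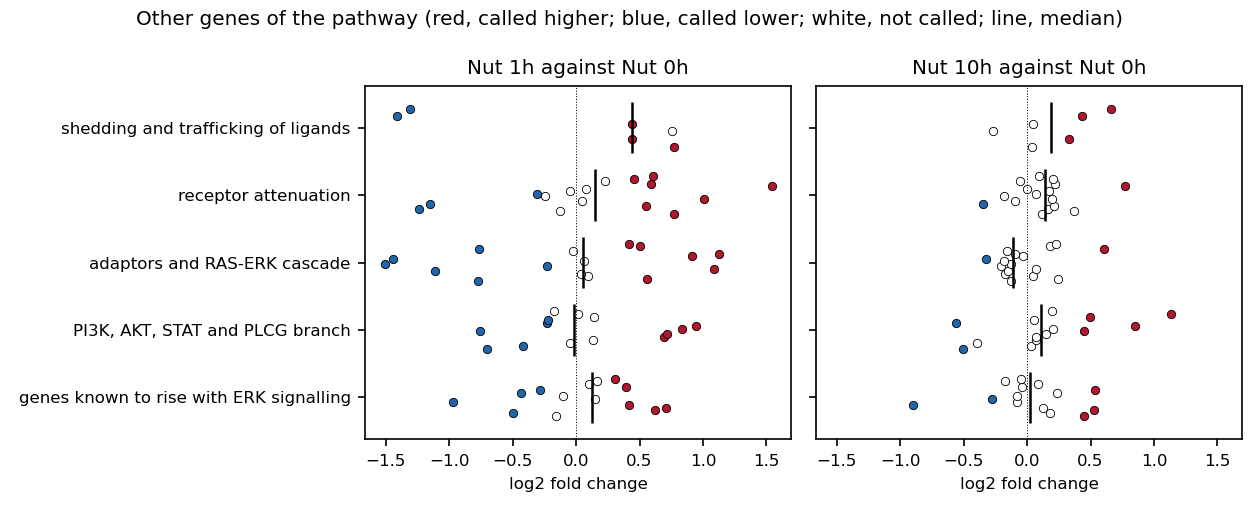
Log2 fold changes (x axis) of the tested genes of 5 lists (y axis) at Nut 1h and Nut 10h against Nut 0h without a GC-content offset, where red is called higher, blue called lower, white not called and the line the median of the list. At Nut 1h each list held genes called in both directions, and at Nut 10h most genes were not called, with STAT3 at 1.14 and EGR1 at -0.90 farthest from 0.

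The genes whose pattern lay closest to TGFA over the 6 libraries were found by the Euclidean distance between log2(CPM + 1) values, each centred on its own mean, among 11569 tested genes whose normalized counts averaged at least 100. They were ZNF337 (distance 0.12), FUCA1 (0.144), LTBP2 (0.147), SAT1 (0.172) and PRKX (0.174). Their log2 fold changes at Nut 10h lay between 1.04 for FUCA1 and 1.39 for ZNF337, and at Nut 1h, without the GC-content offset, between -0.16 and 0.04. Among the 8 genes themselves, EGFR and ERBB3 were closest to each other (0.314), followed by EREG and ERRFI1 (0.461), while AREG and ERRFI1 were farthest apart (2.84). HBEGF was the nearest of the 8 to TGFA, at 0.758, and AREG lay at 1.01.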

How the data were processed

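RNA-seq of 6 libraries was analysed. The authors trimmed paired reads with Trim Galore 0.6.6, aligned them to GRCh37 with STAR 2.7.0f and counted them per gene with featureCounts (Subread 2.0.0), and the deposited values are raw counts, without normalization. Strand setting and multimapping are not given in the sources used here. The authors' own fold changes and p-values were not used. Genes were filtered (filterByExpr), normalized (TMM) and tested with edgeR 4.0.16 (limma 3.58.1, R 4.3.3) by the quasi-likelihood test, with condition as the only term and 3 residual degrees of freedom, and p-values were adjusted by Benjamini-Hochberg over all 16565 genes. In simulated data with the mean counts of Nut 0h and the sizes of all 6 libraries, genes were changed at Nut 10h. Of these, 71 of 100 changed by 1 on the log2 scale and 93 of 100 changed by 2 were called, with 11 unchanged genes. Far fewer genes were changed there than the 4810 called at Nut 10h in the data, so these are not recovery rates for the data. For normalized counts, each count was divided by its library's TMM-scaled size and multiplied by the mean size. GC-content and length offsets are loess trends (span 0.4), with gene models of GENCODE lifted to GRCh37. The GC-content offset used the GC content of the longest transcript, known for 97.4% of tested genes. The length offset used the log2 length of the exon union. RPKM used the same exon union, which may differ from the annotation counted. AREG and AREGB were aligned with blastn 2.17.0. The genes and lists were chosen with earlier results of these data known. Named were the 8 genes, the other family genes, the called gene with the largest rise and fall of each list, CDKN1A, MDM2 and the 5 genes closest to TGFA, and further genes (ADAM17, RHBDF1 at Nut 10h and those at low counts) were named after their values were seen. Promoters were to be printed only with a p53 half-site, and those of the 4 ligands were printed instead after no half-site was found. Alternatives were RLE and upper-quartile normalization, other filters, DESeq2 1.42.0, the replicate number as a term, offsets, 2 groups only, stricter thresholds and each library left out.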

Additional observations from a re-analysis of the deposited data

Results flagged for a closer look

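For 6 of the 8 genes the effect at Nut 10h differed from the effect at Nut 1h in the test between the treated groups (edgeR's quasi-likelihood test over 6 libraries, Benjamini-Hochberg adjustment), 4 higher and 2 lower, beside 34.2% and 33.7% of all tested genes, and with the GC-content offset 6 were higher and 2 lower, beside 32.3% and 25.9%. The difference was 2.11 on the log2 scale for AREG, 1.14 for TGFA, 0.92 for ERBB2 and 0.42 for HBEGF, and -0.77 for ERRFI1 and -0.41 for EREG. With the GC-content offset EREG turned to 0.46 (adjusted p = 3.01e-05), ERBB2 was 0.34 and ERRFI1 -0.27. The EREG call was also lost without Nut 1h replicate 1 (-0.32, adjusted p = 0.0736) or Nut 10h replicate 1 (-0.27, adjusted p = 0.0876). AREG was below its vehicle level at Nut 1h and above it at Nut 10h in both replicates.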

How the results depend on the processing

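Of the log2 fold changes of the 8 genes under the alternatives, 373 kept direction and call, 26 lost the call, 8 gained one and 28 changed sign. A minimum absolute log2 fold change of 1 left 3974, 1135 and 4746 genes (of 11077, 4810 and 11246) at Nut 1h, Nut 10h and between them, and 0, 2 and 2 of the 8 genes. At Nut 10h an adjusted p of at most 0.01 left 2980 genes. Under the GC-content offset, alone and with the replicate block, EREG became -0.030 and -0.029 at Nut 1h and 0.46 and 0.46 between the treated groups, and at Nut 1h EGFR became -0.17 and -0.16, ERBB3 0.17 and 0.17, NRG1 -0.24 and -0.23, and ADAM10 -0.036 and -0.035. The length offset gave -0.28 for EGFR and -0.00075 for NRG1 at Nut 1h, -0.0072 for ERBB2 at Nut 10h, and 0.062 for ERBB3 between the treated groups. Small values also changed sign for EGFR at Nut 1h with RLE normalization (-0.0034), without a filter (-0.016), with 2 groups only (-0.00051) and with DESeq2 (-0.0034), for ERBB3 at Nut 1h with upper-quartile normalization (0.0072), and at Nut 10h without a filter for ERBB2 (-0.018) and EGF (-0.0057). The cause was not tested. As each library was left out, with a lone replicate assumed to vary like the other groups, signs changed for uncalled genes, namely at Nut 1h for TGFA (-0.19 to 0.034), EGFR (-0.12 to 0.18), ERBB3 (-0.087 to 0.041) and CDKN1A (-0.048 to 0.15), at Nut 10h for EGFR (-0.078 to 0.22), ERBB2 (-0.059 to 0.13), ERRFI1 (-0.026 to 0.14), EGF (-0.21 to 0.33) and BTC (-0.13 to 0.48), and for EGFR between the treated groups (-0.0095 to 0.13). The replicate numbers of the labels were not stated to pair samples. Deviations of same-numbered libraries correlated with r of -0.309 (Nut 0h with Nut 1h), 0.446 (Nut 0h with Nut 10h) and -0.279 (Nut 1h with Nut 10h). These values have mixed signs, so they do not decide whether the numbers pair the samples. A replicate block gave 10979, 4893 and 11189 genes and 5, 4 and 6 of the 8. No scaling moved the median of all genes by over 0.1. With 2 replicates, changes under about 0.2 on the log2 scale lay within the intervals, and genes near 0 counts were not testable.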
